A study of Mus musculus with 9 samples.

Results

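Baseline CpG methylation of promoter regions was described in embryonic mouse cardiomyocytes that had received a negative control siRNA. Its libraries were the 3 titled negative siRNA out of the 9 of the study, and its sites were the CpG cytosines covered by at least 30 reads in each of these 3 libraries. This left 310 of the 355 CpG sites listed, in 26 of 30 promoter regions of 15 genes. No library of another siRNA was used, and no effect of a siRNA was measured.

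The cells were primary cardiomyocytes from CD-1 mice, an outbred stock, taken from ventricles at embryonic day 13.5 and pooled within a litter. After 48 h in culture they received 0.012 pmol of the control siRNA, and 72 h later they were collected and those carrying the surface protein VCAM1 were then isolated on magnetic columns. DNA was treated with bisulfite, 2 promoter regions per gene were amplified by PCR, and the products were sequenced on an Illumina MiSeq. The labels do not say whether the 3 libraries came from separate litters, so the p-values given here measure only the spread between these libraries, which may be technical. Methylation amplicons carry no expression, so the cardiomyocyte label was not checked against marker genes. Every cell had been cultured and transfected, and no freshly isolated or untransfected cells were analysed here.

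In mammals, methylation sits mostly on the cytosine of CpG dinucleotides and is copied to the new strand after replication by DNMT1, while DNMT3A and DNMT3B add it to unmethylated sites. Stretches rich in CpG around the start of broadly expressed genes, known as CpG islands, are usually free of methylation, whereas promoters poor in CpG are often methylated to a degree that varies with the tissue. In bisulfite sequencing an unmethylated cytosine is read as T and a methylated one as C, so the methylation level of a site is the percent of its reads that carry C. A level between the extremes in DNA from many cells can come from partly methylated molecules, from differences between cells or from differences between alleles, and these cannot be told apart with 1 value per site.

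The deposited files give positions only as offsets within a region, counted in bp. The order and spacing of all listed cytosines placed 10 of the 26 regions, with 101 of the 310 CpG sites, on the RefSeq promoter of their own gene in the assembly GRCm38.p6. The 250 bases before the annotated start are shown for 5 of these genes, to let the levels below be read against the spacing of CpG in dense and sparse promoters. They are printed 5′ to 3′ on the strand of the gene, in lower case, with each measured CpG in capitals. Distances are counted from the annotated start as 0, with negative values before it.

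The promoter of Camta2, a transcription activator of the heart, holds 14 CpG in this stretch, 11 of them measured, all nearly free of methylation (chr11:70688106-70688355, minus strand).
Camta2: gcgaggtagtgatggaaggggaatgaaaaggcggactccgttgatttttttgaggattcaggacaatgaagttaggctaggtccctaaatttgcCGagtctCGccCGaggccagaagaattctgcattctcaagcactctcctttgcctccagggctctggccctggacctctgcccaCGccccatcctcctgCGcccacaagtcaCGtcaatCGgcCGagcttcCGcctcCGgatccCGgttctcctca
The promoter of Myh6, the alpha cardiac myosin heavy chain, holds 2 CpG, both measured (chr14:54966608-54966857, minus strand).
Myh6: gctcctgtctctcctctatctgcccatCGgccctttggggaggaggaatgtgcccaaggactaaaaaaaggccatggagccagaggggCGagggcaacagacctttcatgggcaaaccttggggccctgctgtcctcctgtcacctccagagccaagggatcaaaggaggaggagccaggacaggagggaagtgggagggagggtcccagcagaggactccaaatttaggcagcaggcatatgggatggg
The promoter of Myh7, the beta cardiac myosin heavy chain, holds 5 CpG, 4 of them measured (chr14:54994627-54994876, minus strand).
Myh7: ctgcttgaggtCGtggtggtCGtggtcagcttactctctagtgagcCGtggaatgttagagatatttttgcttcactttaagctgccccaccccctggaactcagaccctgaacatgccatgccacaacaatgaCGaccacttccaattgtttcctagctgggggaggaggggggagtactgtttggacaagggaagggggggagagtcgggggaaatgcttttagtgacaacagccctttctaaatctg
The promoter of Nppa, which encodes atrial natriuretic peptide, holds 4 measured CpG and ends in another measured cytosine at position -1, whose G is the start base itself (chr4:148000472-148000721, plus strand).
Nppa: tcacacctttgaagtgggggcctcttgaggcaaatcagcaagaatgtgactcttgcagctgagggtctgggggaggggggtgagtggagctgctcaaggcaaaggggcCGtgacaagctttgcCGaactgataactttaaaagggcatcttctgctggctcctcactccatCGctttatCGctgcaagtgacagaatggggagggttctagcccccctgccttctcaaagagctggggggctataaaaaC
The promoter of Myh7b, a myosin heavy chain related to Myh6 and Myh7, holds 3 CpG, all measured (chr2:155610993-155611242, plus strand).
Myh7b: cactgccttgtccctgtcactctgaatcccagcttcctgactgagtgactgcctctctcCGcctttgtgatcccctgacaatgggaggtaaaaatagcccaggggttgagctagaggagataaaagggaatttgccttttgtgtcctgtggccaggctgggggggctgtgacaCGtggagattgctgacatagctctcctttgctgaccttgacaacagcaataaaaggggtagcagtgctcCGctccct

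Promoter regions of control cardiomyocytes spanned nearly the full range of methylation. A region's level, the mean over its kept CpG sites, ran from 0.179% ± 0.058 in Camta1_2 to 90.5% ± 0.802 in Tnnc1_1 (SD, n = 3 libraries, as for all levels below). Averaged over the 26 regions it was 37.2%, 35.9% and 37.5% in replicates 1, 2 and 3, a mean of 36.9% ± 0.83. Averaged over the 310 sites, which gives the CpG-rich regions more weight, it was 23.5% ± 0.388. With levels under 10% called low and levels of 80% or more called high, 8 regions were low, 15 intermediate and 3 high. Counted by site, 162 of 310 were low, 124 intermediate and 24 high, and 82.5% of the variance among site levels lay between regions rather than within them.

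**Figure D1:**
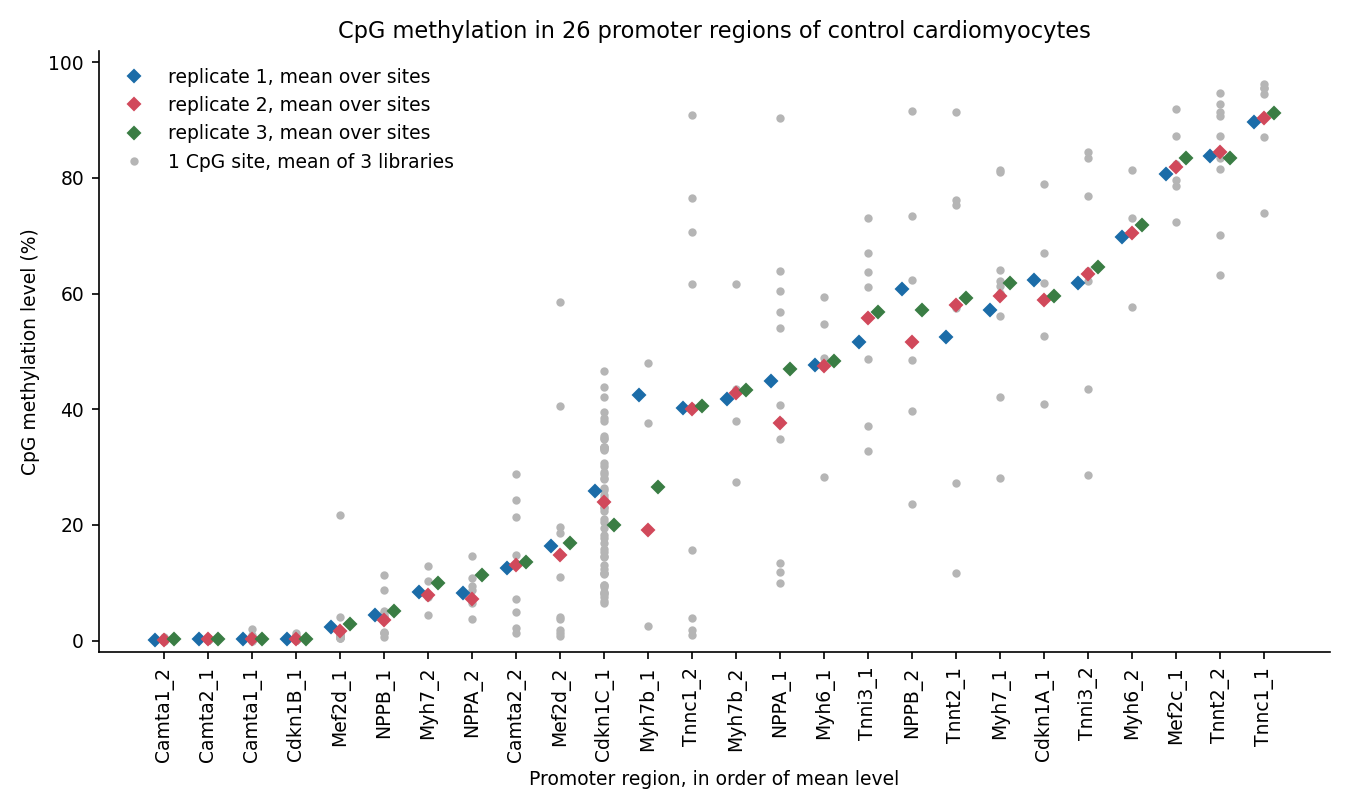
CpG methylation level in percent of the 26 regions, ordered by mean level; coloured diamonds are the mean over sites in each of the 3 libraries and grey points are single sites averaged over libraries. The 3 libraries lie close together in most regions and spread widest in Myh7b_1, from 19.1% to 42.4%, while sites of 1 region can span most of the scale.

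The libraries held 28535010 to 30927206 cytosine calls each, with a median of 7903 reads over kept CpG sites and libraries. Within a region the median coverage differed more, by over 2 times between the deepest and the shallowest library in 4 of 26 regions, Camta1_2, Camta2_2, Cdkn1C_1 and Myh7b_1. The 35 CpG of Cdkn1A_2, Mef2c_2, Cdkn1B_2 and Cdkn1C_2 had no reads, and 10 further CpG had too few reads. No molecular identifiers marked the PCR templates, so reads are not independent molecules and depth bounds counting error alone. Of calls at 2206 cytosines outside CpG, 0.197% ± 0.0184 carried C, which is the background of incompletely converted or non-CpG methylated cytosine against which the low levels were read.

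Sarcomere genes carried the most methylation. These genes encode the contractile machinery: the myosin heavy chains Myh6, Myh7 and Myh7b and the troponin subunits Tnnc1, Tnni3 and Tnnt2. Their 12 regions, assigned to genes by the submitters' names, averaged 54.0% ± 0.767, with 1 low, 9 intermediate and 2 high. The 4 regions of the natriuretic peptide genes Nppa and Nppb averaged 28.2% ± 2.81, and the 3 measured regions of the CDK inhibitor genes Cdkn1a, Cdkn1b and Cdkn1c, which restrain the cell cycle, averaged 27.9% ± 1.44. The 7 regions of the transcription factor genes Camta1, Camta2, Mef2c and Mef2d averaged 16.3% ± 0.447, with 4 low, 2 intermediate and 1 high. The groups also differed in CpG density, so group and density cannot be told apart over this panel. The median was 1.53 CpG per 100 bp in sarcomere, 2.04 in natriuretic peptide, 2.73 in transcription factor and 6.70 in CDK inhibitor regions, so the last group was the densest without being the lowest in level.

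The troponin genes held the highest levels. Tnnc1_1, of the gene for cardiac and slow skeletal troponin C, measured 89.7%, 90.4% and 91.3% in replicates 1 to 3, and each of its 6 sites lay between 73.9% and 96.2%. Tnnt2_2, of cardiac troponin T, measured 83.8%, 84.4% and 83.5%. Both were therefore high in every library, with an SD under 1 point. Tnni3, the cardiac inhibitory troponin subunit, was intermediate in both regions, at 54.8% ± 2.74 and 63.3% ± 1.37. The remaining high region was Mef2c_1, of an early cardiac transcription factor, at 80.6%, 82.0% and 83.5%; the other transcription factor regions reached at most 16.0% ± 1.07, in Mef2d_2.

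The myosin genes ranged from low to intermediate. Myh6_1 and Myh6_2 measured 47.8% ± 0.41 and 70.7% ± 1.05, and Myh7_1 measured 59.6% ± 2.35. Myh7_2, at 8.47%, 7.80% and 10.0%, was the only low region of the sarcomere group. Its 4 sites lie from -239 to -116 of the upstream annotated start of Myh7, in the stretch printed above.

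4 regions were at or close to background: both regions of Camta1, the first of Camta2 and the first of Cdkn1b. CpG carried C more often than other cytosines of the same region in 25 of 26 regions (96.2%), by edgeR's quasi-likelihood test with Benjamini-Hochberg adjustment. The exception was Camta1_1, where pooled over reads CpG carried C in 0.165% ± 0.0208 and non-CpG in 0.165% ± 0.0156 (log2 odds ratio 0.00030 ± 0.107 SE, adjusted p = 0.998). The highest of its 43 sites, offset 365, read 2.22%, 2.84% and 0.685%. CpG exceeded background by little in Camta1_2 (0.290% against 0.165%, adjusted p = 0.0486), Camta2_1 (0.230% against 0.183%, adjusted p = 0.0333) and Cdkn1B_1 (0.255% against 0.175%, adjusted p = 0.00248). The calls in Camta1_2 and Camta2_1 were lost without replicate 2 (adjusted p = 0.175 for each) and without replicate 3 (adjusted p = 0.313 and 0.138).

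Regions rich in CpG were mostly low. Density was taken as listed CpG per 100 bp of the region and ran from 0.796 in Myh7b_1 to 13.3 in Cdkn1C_1, with a median of 1.80. Of the 5 regions with at least 4 CpG per 100 bp, 4 were low and their mean was 5.24% ± 0.521. The 7 regions between 2 and 4 averaged 35.3% ± 1.07, and the 14 sparser regions averaged 48.9% ± 1.08, with 2 low, 10 intermediate and 2 high. Over the 26 regions, which share libraries and in part genes, Spearman's rho between density and level was -0.53 and Pearson's r was -0.47, and rho in single libraries ran from -0.55 to -0.52. These coefficients are descriptions, since regions are not replicates. Among the 21 regions under 4 CpG per 100 bp rho was only -0.23, so the relation was weaker among the sparser regions.

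**Figure D2:**
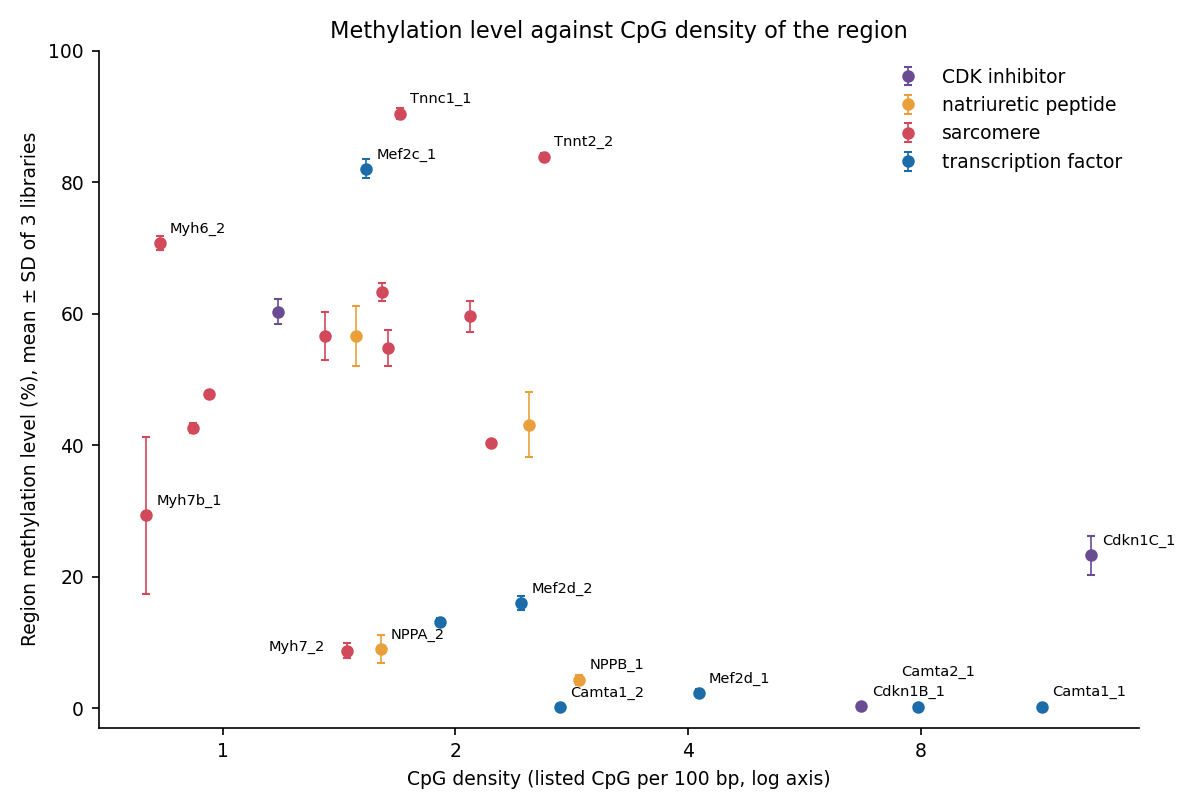
Region methylation level in percent (points are the mean and bars the SD of 3 libraries) against CpG density on a log axis, coloured by gene group. Below 4 CpG per 100 bp the levels run from 0.179% to 90.5%, and of the 5 denser regions Cdkn1C_1 alone is above 10%.

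Cdkn1C_1, the densest region, was the exception to low methylation among the dense ones. Cdkn1c encodes a CDK inhibitor, p57, and is a maternally expressed imprinted gene. The region measured 25.8%, 23.9% and 19.99%, so replicate 3 was lowest, and it was lowest at 46 of 52 sites. That library also had fewer reads there, a median of 538 per site against 1220 and 1210.5, and the part of depth in its lower level was not tested. Levels along it fell from 42.2% at the first site to 8.05% at the last, with a slope of -5.47 ± 0.237 points per 100 bp (limma adjusted p = 0.000182), but the fall was not even. In stretches chosen after the values were seen, the 18 sites at offsets 24 to 123 averaged 33.3% ± 3.04, the 13 at 131 to 237 averaged 12.4% ± 2.5, the 16 at 249 to 327 averaged 24.9% ± 3.81 and the last 5 averaged 9.93% ± 1.43. The highest site, offset 69, was at 46.6% and the lowest, offset 368, at 6.50%. The RefSeq promoter windows used include none for Cdkn1c, and the region was placed on no window of another gene. Its distance from the start of Cdkn1c was therefore not analysed here.

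The RefSeq promoter windows of these genes, 250 bases before to 50 after the start, also differ in CpG. Windows were available for 14 of the 15 genes, all but Cdkn1c. The window of Camta1 holds 28 CpG, that of Cdkn1b 30, that of Mef2d 24 and those of Camta2 19 and 20, where the median of all 32851 windows is 7. The window of Myh6 holds 2 and that of Tnnc1 holds 1. Of the regions placed on such windows, Camta2_1 and Cdkn1B_1 were low and Myh6_1 was intermediate. Cdkn1B_1 lies mostly upstream of its window, with 9 cytosines matched. However, Myh7_2 was also low although the windows of Myh7 hold only 2 and 5 CpG. NPPA_2 was low too, at 8.95%, and the window of Nppa holds 6.

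Within a gene the 2 regions usually differed, in either direction. Both regions had kept sites in 11 genes, and the second differed from the first in 10 of 11 (90.9%) by edgeR's quasi-likelihood test on summed reads with the library as a block. It was higher in 7 (63.6%) and lower in 3 (27.3%), and the 3 libraries of the 2 regions did not overlap in 9 of 11 (81.8%). The difference between the means over sites exceeded 20 points in 6 genes. The numbers 1 and 2 are the submitters' names. In Nppa and Myh7b the second region lies upstream of the first, and in Mef2d it overlaps the first at smaller offsets; for the other genes the order was not analysed here.

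The 2 natriuretic peptide genes, which lie near each other on chromosome 4, differed in opposite directions. Nppb, which encodes B-type natriuretic peptide, rose from 4.39%, 3.52% and 5.04% in its first region to 60.7%, 51.7% and 57.2% in its second. The gap was 52.2 ± 4.09 points (log2 odds ratio 5.54 ± 0.109 SE, adjusted p = 1.32e-23). Nppa went from 44.8%, 37.6% and 47.0% to 8.23%, 7.26% and 11.4%, a difference of -34.2 ± 3.37 points (log2 odds ratio -2.45 ± 0.134, adjusted p = 1.43e-14). In both genes replicate 2 was lowest in each region, and no library of the lower region reached the higher one.

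Myosin and troponin genes held the other large gaps. Myh7 went from 57.2%, 59.7% and 61.9% to 8.47%, 7.80% and 10.0%, a difference of -50.8 ± 1.81 points (log2 odds ratio -4.00 ± 0.109, adjusted p = 1.14e-20). Myh6 differed the other way, by 22.9 ± 0.723 points, so its second region was higher in all 3 libraries. Tnnc1 went from 90.5% to 40.3%, a difference of -50.2 ± 0.666 points and the most even between libraries of the gaps over 20 points. Its second region lies 971 to 1375 bp upstream of the annotated Tnnc1 start and matched the promoter of a neighbouring gene, Nisch. Tnnt2 differed by 27.3 ± 3.67 points and Tnni3 by 8.55 ± 1.47 points, each with the second region higher in 3 of 3 libraries. Pooled over reads, as in the test, Tnnt2 went from 66.9% to 84.8% and Tnni3 from 50.6% to 72.2%. The sizes of these 2 gaps thus depend on how sites are weighted.

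Among transcription factor genes, Camta2 went from 0.191%, 0.237% and 0.249% to 12.6%, 13.1% and 13.7% (12.9 ± 0.516 points, log2 odds ratio 6.53 ± 0.117, adjusted p = 3.96e-24). Mef2d, a MEF2 family factor of muscle, went from 2.25% ± 0.628 to 16.0% ± 1.07 (13.8 ± 0.465 points). In both genes the low region is thus paired with one in which some sites are methylated. In Camta1 the regions, at 0.226% ± 0.043 and 0.179% ± 0.058, overlapped and did not pass the test (adjusted p = 0.157). The difference of means was -0.047 ± 0.0993 points, whereas the log2 odds ratio on pooled reads was 0.94 ± 0.642, so the sign depends on how sites are weighted.

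Myh7b passed the test narrowly, and its call depends on which libraries are used. Its first region measured 42.4%, 19.1% and 26.5% and its second 41.8%, 42.8% and 43.3%, so the second was higher in 2 of 3 libraries (13.3 ± 12.5 points, log2 odds ratio 1.27 ± 0.519, adjusted p = 0.0254). The call was lost without replicate 2 (log2 odds ratio 0.80, adjusted p = 0.426), without replicate 3 (1.09, adjusted p = 0.371) and without the block (1.28, adjusted p = 0.0687). Replicate 1 alone is high in the first region, and its level there reaches that of the second. Without replicate 1 the call held and was stronger (edgeR log2 odds ratio 1.90, adjusted p = 0.000103). Limma on log2 odds also kept it (0.90, adjusted p = 0.0475).

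Methylation also changed along single regions. A slope in percentage points per 100 bp was fitted within each library over the sites of each of 21 regions with at least 5 kept sites, and its mean was tested against 0 with limma. In 15 of 21 regions (71.4%) it passed at an adjusted p under 0.05, rising with offset in 6 (28.6%) and falling in 9 (42.9%). The test asks only whether the fitted slope repeats between libraries, not whether levels change steadily along a region. Among regions that passed, Spearman's rho of level with offset was -0.94 in Tnnt2_1 and NPPB_2. It was only 0.23 in Myh7_1, -0.30 in Cdkn1A_1 and 0.083 in Tnnt2_2. The slope exceeded 10 points per 100 bp in 5 regions. The 6 that did not pass included 4 low regions near background, Camta1_1, Camta1_2, Camta2_1 and Cdkn1B_1, and the low regions NPPA_2 and NPPB_1.

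Cardiac troponin T held the steepest fall. In Tnnt2_1 the first site, offset 94, measured 91.3%, 92.2% and 90.9% and the last, offset 420, 10.95%, 12.1% and 11.8%, a slope of -23.4 ± 1.10 (SD over libraries) points per 100 bp (limma adjusted p = 0.000182). NPPB_2 fell from 93.1%, 89.2% and 92.7% at offset 51 to 26.8%, 17.6% and 26.5% at offset 381, a slope of -18.5 ± 1.32 points per 100 bp (adjusted p = 0.000331). All 3 libraries showed each fall, and the end sites did not overlap. Mef2d_2 fell by 15.2 points per 100 bp, from a highest site of 58.5% at offset 82 to a lowest of 0.796% at offset 352.

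**Figure D3:**
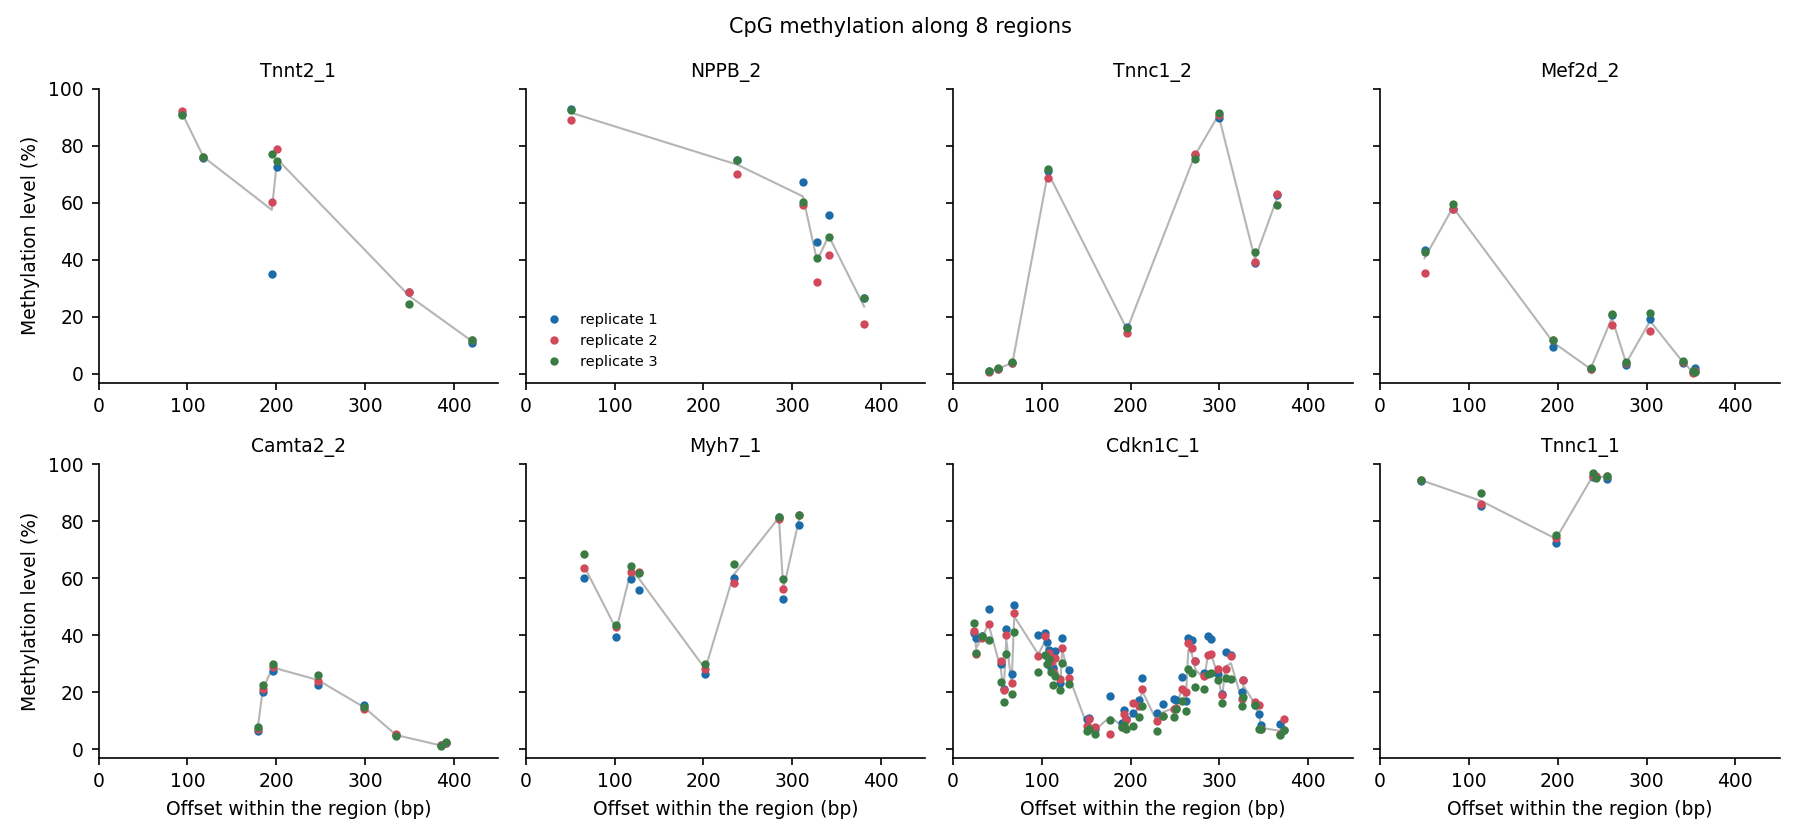
Methylation level in percent of each CpG site against its offset in bp in 8 regions; coloured points are the 3 libraries and the grey line joins their means. Tnnt2_1 and NPPB_2 fall from above 89% to under 27%, Cdkn1C_1 falls with a dip and a second peak on the way, and Tnnc1_2 jumps between neighbouring sites at the same place in all libraries.

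Mef2d_2 and Mef2d_1 overlap, so some sites were measured under both names. They share 24 cytosines in the same order and spacing, 4 of them CpG. The levels of these 4 in Mef2d_1 and Mef2d_2 were 21.8% ± 5.59 against 18.6% ± 3.11, 3.98% against 4.10%, 1.00% against 0.796% and 0.554% against 1.28%. The same sites thus had mean levels within 3.17 points of each other, and the widest gap was at a site with a median of only 87 reads in Mef2d_1. How reads in the overlap were assigned to a region is not stated in the labels or file headers. Joined at the overlap, methylation fell from the start of Mef2d_2 to under 1% at the lowest site of Mef2d_1, 0.383% at offset 359.

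The steepest rises were in Nppa and Tnnc1. NPPA_1 rose by 19.1 ± 0.999 points per 100 bp and Tnnc1_2 by 18.7 ± 0.228 (limma adjusted p = 0.000182 and 2.24e-05). In Tnnc1_2 the sites at offsets 41, 51 and 67 measured 1.01% ± 0.236, 1.84% ± 0.269 and 3.98% ± 0.312, and the next, only 40 bp on at offset 107, measured 71.2%, 68.8% and 71.9%. That step of 66.7 points was the widest between neighbouring sites under 50 bp apart, and it was present in every library. Further along the level fell to 15.6% ± 1.14 at offset 196 and reached 90.9% ± 0.912 at offset 299. The cytosine pattern of Tnnc1_2 matched the promoter of Nisch, a neighbouring gene on the opposite strand, so the region lies 971 to 1375 bp upstream of the annotated Tnnc1 start (chr14:31206937-31207341), and its 3 lowest sites are its closest to the Nisch start, at -150, -160 and -176 from it.

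The slopes of Tnni3_2 (-3.09 points per 100 bp) and Tnnt2_2 (3.70) rested on their end sites. Without the first and last site they were 3.26 and -4.66. A straight line is therefore a poor description of these 2 regions: Tnnt2_2 had its lowest site, 63.2%, at its first offset, 58, and reached 94.6% at offset 165. Leaving out replicate 1 or replicate 2 ended the calls of Tnni3_2 and of Tnnc1_1, whose slope was 1.20.

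In the regions placed on promoters, level could be read by distance from the annotated start. Sites named by distance were in part chosen after their values were seen. The matched starts of Myh6, Camta2 and Tnni3 lie inside the annotated span of the gene, downstream of another start. Across Nppa, sites before the start lay between 3.70% and 40.8% and those after it between 37.9% and 90.5%. The 6 sites of NPPA_2, all upstream of NPPA_1, lay between 3.70% and 14.6%. In NPPA_1 the levels were 9.97% at -142, 11.9% at -127, 40.8% at -79, 34.8% at -71 and 13.5% at -1, then 37.9% at 29, 63.9% at 106 and 90.5% ± 0.703 at 201 bp after the start. The site at -1 measured 16.6%, 10.6% and 13.1%, below both neighbours in every library, and closely follows a TATAAA run whose first base is at -9. Searched on both strands, that motif was found in 1 of the 5 printed stretches and in 13.6% of all 32851 windows. The windows are longer than the printed stretches, since they also hold 50 bases after the start.

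Myh7b had a single low site amid intermediate ones. At -77 it measured 2.69%, 2.44% and 2.21%, while the nearest site on each side, at -191 and -8, measured 43.4% ± 3.21 and 37.6% ± 27.1. The low CpG is the centre of the letters CACGTG, which read the same on both strands. They occur in 1 of the 5 printed stretches and in 7.15% of all the longer windows. The motif was looked for after the value was seen, and a match of letters is no evidence of a bound factor. The sites at -295 and -376, in the upstream region, were at 27.4% and 61.7%.

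Tnni3 and Myh6 had their lowest site near or before the start. In Tnni3_1 the site at -1 measured 27.7%, 32.9% and 37.5%, the lowest of 7, whereas 61.1% ± 2.27 was found at -106 and 73.0% ± 4.21 at 237 bp after the start. In Myh6_1 the site at -162 was at 28.2% ± 0.83, against 48.9% at -223 and 59.3% at 68 bp after the start. The 4 sites of Myh7_2 were all under 13%, at 4.48%, 7.46%, 10.3% and 12.8% from -239 to -116. In contrast, all 34 sites of Camta2_1 on both sides of the start were under 0.5%, the highest being 0.493%, and no site of Cdkn1B_1 exceeded 1.35%. Cdkn1A_1, which spans -504 to -81 of the upstream annotated start of Cdkn1a, the gene for p21, lay between 41.0% and 79.0%. The window of that start holds 2 CpG. The window of a downstream start of the gene holds 23, and no measured region was placed on it.

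**Figure D4:**
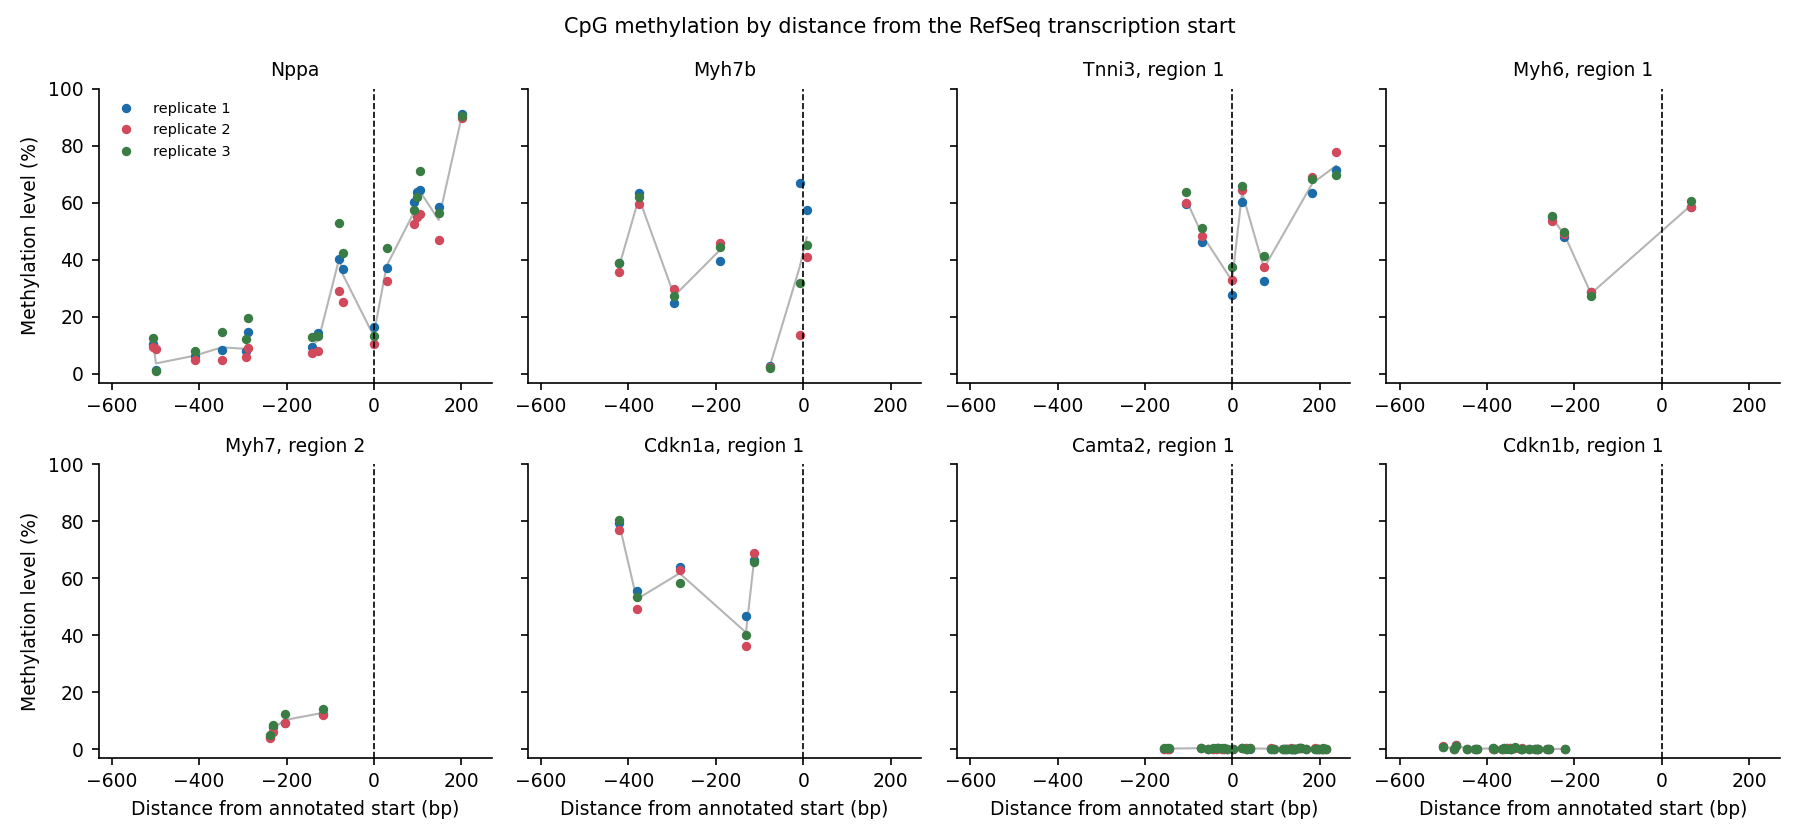
Methylation level in percent of CpG sites against distance in bp from the RefSeq start (dashed line) for 8 genes with regions placed on their promoter; coloured points are the 3 libraries and grey lines join the means within a region. In Nppa the mean levels run from under 15% at the upstream end to 90.5% at the downstream end, while all sites of Camta2_1 and Cdkn1B_1 lie near 0.

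Close sites mostly had more similar levels than distant ones. In the 18 regions of 10% or more, the median difference between neighbouring CpG was 4.53 points over 55 pairs at most 10 bp apart, 14.4 over 57 pairs 11 to 50 bp apart and 18.9 over 35 pairs farther apart. Steps over 20 points occurred in 3 of these 55 pairs, 19 of the 57 and 16 of the 35, and the largest at most 10 bp apart was 29.6 points. Cdkn1C_1 supplied most of the close pairs. Without it the median over the 14 close pairs was 4.77 points, and 2 of the 14 exceeded 20 points.

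Site levels were close between the 3 libraries except at a few intermediate sites. Pearson's r over the 310 sites was 0.987, 0.987 and 0.991 for the 3 pairs of libraries, as a description across sites. The median SD between libraries was 0.646 points, and it was 0.0956 at low sites, 3.04 at intermediate sites and 0.729 at high sites. Binomial counting at the recorded coverage would give a median of 0.231 points, and the observed SD was a median of 3.89 times the binomial one at intermediate sites. Of the 310 sites 25 spread by more than 5 points and 3 by more than 10, all of them intermediate.

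The widest sites were in Myh7b, Tnnt2 and Nppa. At offset 145 of Myh7b_1, position -8 from the start, the level was 67.0%, 13.7% and 31.9% from 17179, 7013 and 5398 reads. At offset 195 of Tnnt2_1 it was 35.1%, 60.5% and 77.1% from at least 24946 reads each, whereas the site at offset 201, just 6 bp on, read 72.6%, 78.8% and 74.7%. Replicate 1 was thus highest at the first of these sites and lowest at the second, and the order of libraries was not shared. The third, offset 125 of NPPA_1, read 40.2%, 29.2% and 52.9%. The other 7 of the 10 widest sites, with SDs of 6.84 to 8.69 points, were NPPA_1 offsets 133 and 310, Myh7b_1 offset 161, Tnni3_2 offset 49, NPPB_2 offsets 328 and 341 and Cdkn1C_1 offset 177. Of these 7, Tnni3_2 offset 49 and Cdkn1C_1 offset 177 had the fewest reads, from 120 and 69 up.

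**Figure D5:**
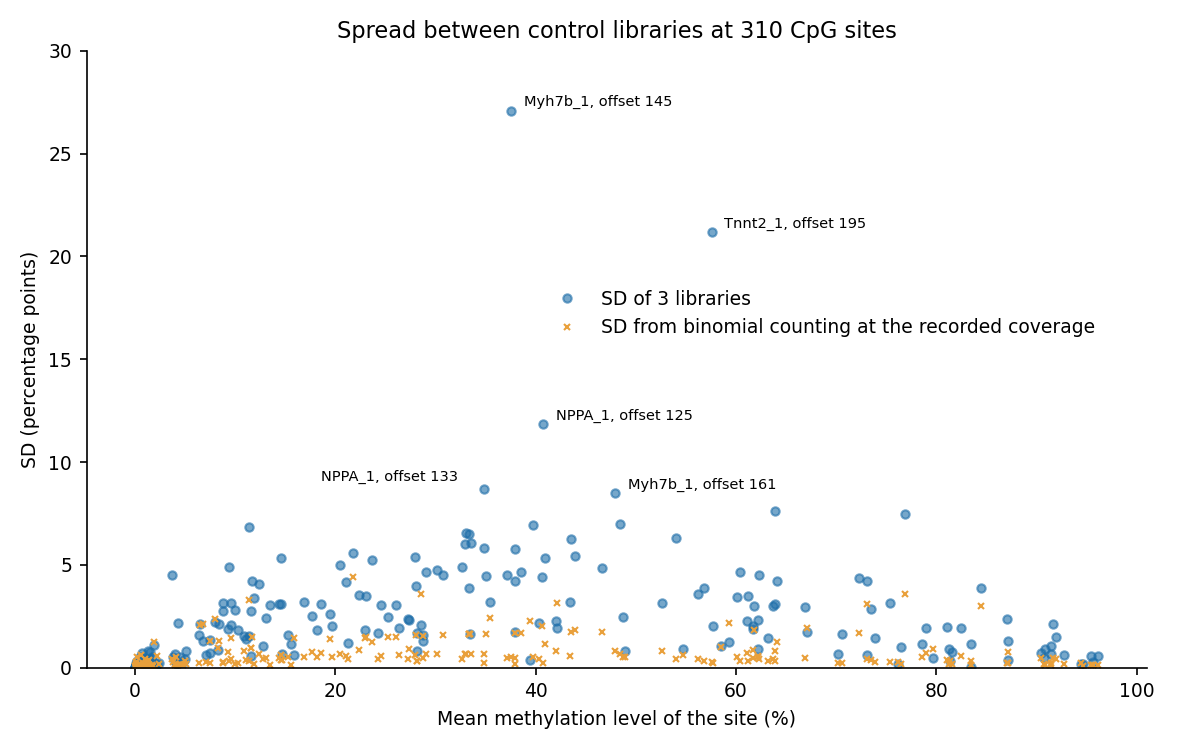
SD between the 3 libraries in percentage points (circles) against the mean methylation level in percent of each of the 310 sites, with the SD that binomial counting would give (crosses). The SD is widest at intermediate levels, and Myh7b_1 offset 145 and Tnnt2_1 offset 195, at 27.1 and 21.2 points, stand apart.

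The order of libraries was uneven over the panel. Replicate 3 was highest in 20 of 26 regions, and the lowest was replicate 2 in 13, replicate 1 in 10 and replicate 3 in 3. Replicate 3 was highest in 10 of 12 sarcomere, 6 of 7 transcription factor and 3 of 4 natriuretic peptide regions. Replicate 2 was lowest in all 4 natriuretic peptide regions, at 11 of 11 sites of NPPA_1, 6 of 6 of NPPB_2, 5 of 6 of NPPA_2 and 6 of 10 of NPPB_1, and replicate 1 was lowest in 7 of 12 sarcomere regions; a difference between gene groups was not tested. The share of the variance between libraries that was common to the sites of a region ran from 0.336% in Cdkn1B_1 to 78.8% in NPPB_2. It was under 50% in 18 of 26 regions. Such a share tends to be larger where a region has fewer sites, and Cdkn1B_1 had 23 sites but NPPB_2 only 6. Cdkn1B_1 also lay close to background, where counting error weighs more. The range therefore does not rank regions by how far their sites move together. The share of C outside CpG, pooled over all regions, was 0.197%, 0.179% and 0.216% in replicates 1 to 3, also lowest in replicate 2 and highest in replicate 3. Single regions did not all share this order. Mef2d_1 read 0.257%, 0.208% and 0.652% outside CpG, but replicate 1 was highest in more regions than replicate 3. The part of this background in the order of libraries was not tested. The SD of a region between libraries was 1.06 points in the median, under 1 point in 12 regions and over 3 points in 4.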

How the data were processed

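Targeted bisulfite amplicons of 3 negative siRNA libraries were analysed. The submitters' processing notes name FastQC, Bismark, Bowtie2 and the build mm10; versions, settings and any deduplication are not given in the sources used here. Per the file headers, each deposited table gives, for every cytosine, its coverage (a read count) and what percent of reads showed C or T. Coverage times percent gave a whole number of reads within 0.01 in 7978 of 7978 cases and was used as the methylated count. Incomplete conversion and unequal amplification of converted alleles would both enter the percent.

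CpG sites needed 30 reads in each library. Region levels are means over sites, and errors are SDs between libraries unless named SE. Region 1 against region 2 of a gene, and CpG against non-CpG, were tested with edgeR 4.0.16 (quasi-likelihood, two-sided, counts summed over sites). Both sides of each test come from the same DNA, so the library was a block. Slopes were tested with limma 3.58.1 in R 4.3.3. Both methods share part of the estimated spread over the genes or regions of a family, so very small p-values depend on that sharing. Adjustment was by Benjamini-Hochberg within each family of 11 genes, 26 regions or 21 regions, at 0.05. The tests were run on simulated data first.

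Regions were placed by matching their cytosine spacing and context to 32851 RefSeq promoter windows of GRCm38.p6 on both strands, with at least 9 cytosines matched. Sequences come from those windows. Identical listings of Cdkn1B_2 and Cdkn1C_2, 104 cytosines each, held no reads.

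All regions are named. Sites named are the highest and lowest of each region with at least 5 sites and the 10 of widest SD; others were chosen after their values were seen. The members, gene groups and tests were chosen with earlier results of these data known. Alternatives were coverage minimums of 10 and 100, each library left out, pooled reads, site weighting, other density and slope definitions, limma in place of edgeR, and no block.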

Additional observations from a re-analysis of the deposited data

How the results depend on the processing

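Of 50 recomputed summary values 41 stayed close to the reported ones. Closeness was judged by a loose ratio for counts of calls, and every such count passed it. The other values were judged by the SD between libraries or a small share of the value. The 9 that moved were levels, correlations or spreads. Coverage minimums of 10 and 100 changed no call. The mean level was 23.5% with sites weighted equally and 36.5% to 37.3% with a library left out. The correlation of level with CpG density was -0.55 with reads pooled, -0.65 over the 21 regions with 5 or more sites, -0.58 over the span of kept sites and -0.23 under 4 CpG per 100 bp, an alternative chosen after seeing the data. The median site SD was 0.338 to 0.446 points with a library left out and 0.715 points with library means subtracted. An SD over fewer libraries tends to have a lower median, so the values with a library left out are not comparable with the main one.

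Leaving out a library gave 9 to 10 genes with differing regions, 23 to 25 regions above the non-CpG level and 13 to 15 slopes. Without the replicate block 10 genes and 25 regions passed, Myh7b was lost (log2 odds ratio 1.28) and Camta1 passed (0.92, adjusted p = 0.0169, edgeR). Camta1 reversed with limma on log2 odds (-0.24) and on points (-0.047). It passed without the 2 widest sites (edgeR adjusted p = 0.0154), an alternative chosen after seeing the data. These sites lie in Myh7b_1 and Tnnt2_1, so the reads of Camta1 itself were the same as in the main test. Limma on points also lost Myh7b (13.3 points, adjusted p = 0.125). The size of small p-values moved with the method. For Camta2 the adjusted p was 3.96e-24 with edgeR, 2.21e-08 with edgeR without the block and 4.40e-07 with limma on log2 odds. Limma lost Camta2_1 against non-CpG (adjusted p = 0.0553), and Camta1_1 reversed without replicate 1 (-0.024 to 0.021 with a library left out). Slopes reversed in Tnni3_2 (3.26) and Tnnt2_2 (-4.66) without end sites and in NPPB_1 without replicate 3 (-0.21 to 0.32 with a library left out). On log2 odds 21 of 21 slopes passed against 15 in the main test, a change that the ratio above still counted as close. With 3 or more sites 18 of 26 passed. The cause of these changes was not tested. Among the low regions depth was limiting in Camta1_2, with a median of 140.5 reads per site.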
